A study of Homo sapiens with 4 samples.

Results

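The 4 noncoding RNA genes described here were followed in HCCLM3, a human hepatoma cell line: AL139099.5, RMRP, MALAT1 and NEAT1. They were selected on their level, as abundant noncoding RNAs of these samples, and comprise every row whose gene name is one of these symbols: 17 listed transcripts of 38510, belonging to 4 of 13036 listed genes. Because level chose them, their abundance is given as a description with no test, while the difference between groups was not used to choose them. A lentivirus had brought in a short hairpin RNA, either the control hairpin of 2 shCtrl samples or, in the 2 shKIAA1429 samples, one that targets KIAA1429, and the labels give no other treatment. KIAA1429, listed as VIRMA, belongs to the enzyme complex that deposits N6-methyladenosine (m6A), a base modification of RNA. The comparison asks how the RNAs of this line differ when KIAA1429 is depleted. Whether the 2 samples of a group came from separate cultures is not stated, so p-values measure the spread between these samples, which may be technical.

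The 4 RNAs work in different parts of the cell. The locus of AL139099.5 is that of 7SL, the RNA scaffold of the signal recognition particle, which binds the signal peptide of a nascent secretory protein and docks its ribosome at the endoplasmic reticulum. RMRP is the RNA of RNase MRP, an endonuclease that shares most of its proteins with RNase P and cleaves ribosomal RNA precursors in the nucleolus. MALAT1 is retained in nuclear speckles, where splicing factors are stored, and NEAT1 is the architectural RNA of paraspeckles, nuclear bodies built around its long form. The first 2 RNAs are transcribed by RNA polymerase III and carry no poly(A) tail, and the last 2 by RNA polymerase II. MALAT1 ends in a triple helix of U-rich motifs with a genome-encoded A-rich tract after a tRNA-like RNA has been cut off downstream.

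The 2 short RNAs come first because they hold nearly all of the FPKM of the 4 genes, and 1 of them has near-identical copies. AL139099.5 (ENSG00000283029.1_3, transcript AL139099.5-201) lies at chr14:50053297-50053596 on the plus strand of GRCh37, is 300 bases long and is typed non_coding in the files. Its identifier is not in the GENCODE annotation lifted to GRCh37 that was used here. In that annotation the position falls within the span of the RPS29 gene (chr14:50037702-50065882, minus strand), a ribosomal protein gene on the opposite strand. Aligned with RN7SL2, an annotated 7SL gene at chr14:50329271-50329567 on the minus strand, it paired 297 bases with 4 mismatches, an identity of 98.7%, and left 3 bases unpaired. RN7SL3, at chr14:50320336-50320632, had 7 mismatches over 297 bases, an identity of 97.6%. Of the 201 windows of 100 bases in AL139099.5-201, 106 occurred unchanged in RN7SL2 and 24 in RN7SL3. RN7SL2 and RN7SL3 have no values of their own in the files, so reads from these genes and from AL139099.5 cannot be told apart here.

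RMRP (ENSG00000269900.3_2, transcript RMRP-201, typed lincRNA in the files) lies at chr9:35657748-35658015 on the minus strand of GRCh37 and is 268 bases long. The annotation holds RMRP under another identifier, as a ribozyme at chr9:35657751-35658014, so the listed transcript runs 1 base further at its 5′ end and 3 bases further at its 3′ end. The sequence is shown to mark those ends, and these bases are in capitals.
RMRP-201: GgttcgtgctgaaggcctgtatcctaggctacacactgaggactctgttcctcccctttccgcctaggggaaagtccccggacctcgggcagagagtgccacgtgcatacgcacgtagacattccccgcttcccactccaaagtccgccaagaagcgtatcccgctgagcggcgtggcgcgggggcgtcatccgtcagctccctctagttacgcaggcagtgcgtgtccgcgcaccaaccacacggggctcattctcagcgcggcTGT

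The main MALAT1 transcript, MALAT1-202 (ENSG00000251562.7_2), lies at chr11:65265233-65273940 on the plus strand and spans 8708 bases in 1 exon. The stretch below is shown because it holds the longest run of A in the last 1000 bases of that transcript, 13 bases at 359 bases before the listed end. Capitals mark runs of at least 4 T or 4 A, and there were 6 such runs of T and 3 of A. The U-rich motifs and the A-rich tract of the known triple helix, and the tRNA-like RNA after it, lie in this stretch (chr11:65273459-65273651), so the listed transcript runs beyond the place where the mature RNA is cut.
MALAT1 stretch: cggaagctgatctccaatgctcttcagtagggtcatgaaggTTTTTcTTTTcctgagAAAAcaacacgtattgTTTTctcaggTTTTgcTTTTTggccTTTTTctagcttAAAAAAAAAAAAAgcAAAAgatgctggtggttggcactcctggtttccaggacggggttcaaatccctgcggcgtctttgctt

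NEAT1 (ENSG00000245532.7_3) has a long form, NEAT1-202, of 22743 bases in 1 exon at chr11:65190269-65213011 on the plus strand. NEAT1-201, at chr11:65190245-65192298, has 2 exons and 1811 exonic bases in the annotation. Of those bases 98.7% also lie in NEAT1-202, and 24 lie before its start, so what separates the short transcript is its junction across an intron of 243 bases. The junction is shown because NEAT1-201 had the largest ratio between its highest and lowest sample of the 17 member transcripts. Lower case is the last 30 bases of exon 1 and capitals are the first 30 bases of exon 2.
NEAT1-201 junction: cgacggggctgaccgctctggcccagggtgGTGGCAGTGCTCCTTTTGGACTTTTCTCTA

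Levels are FPKM, the fragments mapped to a transcript per kilobase of its length and scaled to the total mapped, as deposited by the authors, and a gene's level is the sum over its listed transcripts. Summed over all listed transcripts the FPKM came to 370253.5 and 374278.4 in the shCtrl samples and to 390224.4 and 382016.4 in the shKIAA1429 samples. Read depth is unknown, so no counting error can be given for single values. The hairpin's target VIRMA had an FPKM of 9.37 and 14.1 in shCtrl and of 6.90 and 8.52 in shKIAA1429, lower without overlap, with a log2 fold change of -0.53 (SE 0.24, limma adjusted p = 0.917). For the cell line itself, 1 of 11 hepatocyte markers was listed, SERPINA1 at 3.34 to 5.63 FPKM, and the transcripts of ALB, AFP and TTR were not listed. The epithelial keratins KRT8 (1019 to 1176 FPKM) and KRT18 (971 to 1073 FPKM) were high, and so was the mesenchymal VIM (962 to 1227 FPKM). The epithelial CDH1 and EPCAM were not listed. CLDN1 was at 3.26 to 11.3 FPKM, COL3A1 at 55.8 to 63.6 FPKM, COL1A1 at 3.54 to 6.76 FPKM and CD68, a macrophage marker, at 44.1 to 52.3 FPKM. VIM, the keratin KRT19, SERPINA1 and COL3A1 were higher in shKIAA1429 without overlap, 4 of the 9 markers tested against 16.9% of all genes tested, and their part in the results below was not tested. PECAM1, PTPRC, CD3E and HBB, which mark endothelium and blood, were not listed.

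AL139099.5 was the most abundant of all listed genes in every sample. Its FPKM in replicates 1 and 2 was 41942 and 41866 with the control hairpin and 49052 and 49194 with the KIAA1429 hairpin. Both shKIAA1429 samples stood above both shCtrl samples, and the samples within a group lay close together. RMRP was second in every sample, at 26029 and 25158 FPKM in shCtrl and 28135 and 24792 FPKM in shKIAA1429. Here the shKIAA1429 samples were the highest and the lowest of the 4, so the groups overlapped. The mean over the 4 samples was 1.75 times higher for AL139099.5 than for RMRP, and RMRP exceeded the next gene of any type 4.44-fold.

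MALAT1 and NEAT1 lay far lower per unit of length. MALAT1 summed to 345.0 and 320.7 FPKM in shCtrl and to 281.4 and 305.2 FPKM in shKIAA1429, with both shKIAA1429 samples below both shCtrl samples. NEAT1 summed to 37.9 and 31.8 FPKM in shCtrl and to 31.2 and 71.6 FPKM in shKIAA1429. The second shKIAA1429 sample stood alone and the first was the lowest of the 4. The order AL139099.5, RMRP, MALAT1, NEAT1 was the same in the 4 samples, and no value of 1 gene fell among those of the next.

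**Figure D1:**
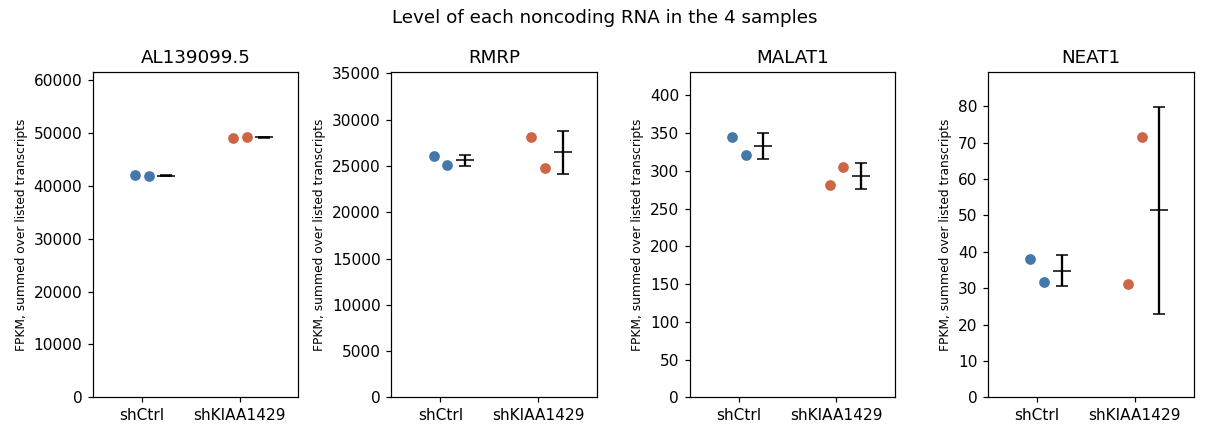
FPKM of AL139099.5, RMRP, MALAT1 and NEAT1, each panel on its own linear axis from 0, with 1 point per sample (shCtrl blue, shKIAA1429 orange) and the group mean ± SD beside the points (n = 2). AL139099.5 sits at 41866 to 41942 in shCtrl and at 49052 to 49194 in shKIAA1429, MALAT1 is lower in both shKIAA1429 samples, RMRP overlaps, and NEAT1 has 1 shKIAA1429 sample at 71.6.

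By mean FPKM, the label of most abundant noncoding RNAs held for 2 of the 4. Among the 1371 listed genes with no protein-coding transcript, AL139099.5 and RMRP ranked 1 and 2 by mean FPKM, MALAT1 ranked 5 and NEAT1 ranked 17. AC006064.5, in NCAPD2 and listed with the type sense intronic, had a mean of 585 FPKM. It and AL356488.2, with 421 FPKM, stood between RMRP and MALAT1, and RMRP exceeded AC006064.5 44.5-fold. The positions of these 2 genes were not compared with those of short structured RNAs, so which RNA they give was not determined. Directly below MALAT1 came TERC, the RNA of telomerase, at a mean of 304 FPKM against 313 for MALAT1, and the ranges of these 2 over the samples overlapped. CYTOR followed with 165 FPKM and AC007952.4 with 156 FPKM. NEAT1, with a mean of 43.1 FPKM, did not stand apart in FPKM from the gene ranked next, NORAD, at 40.5 to 46.4 FPKM. Below NORAD stood Z93241.1, PVT1, SNHG25 and AL161431.1. By sample, NEAT1 ranked 18 and 20 in shCtrl and 23 and 13 in shKIAA1429.

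**Figure D2:**
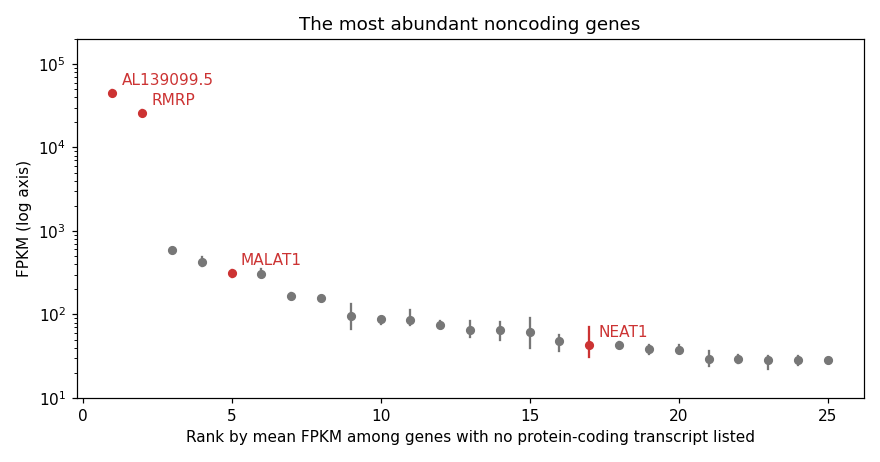
Mean FPKM on a log axis against rank among the listed genes with no protein-coding transcript, for ranks 1 to 25, with a vertical line from the lowest to the highest sample and the 4 members in red. AL139099.5 and RMRP lie at 24792 FPKM or above in every sample, the gene ranked 3 has a mean of 585 FPKM, and NEAT1 lies at rank 17 with the widest spread of the 4 members.

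Rank by FPKM depends on length, since FPKM divides by it. For RNAs as short as RMRP (268 bases) and AL139099.5 (300 bases), FPKM depends strongly on the length correction used. Their levels, their ratios to longer genes and their shares of the summed FPKM carry that uncertainty. Multiplying each transcript's FPKM by its exonic length gives fragments scaled to the total mapped (per 1000000), an approximation because the length correction the authors used is not stated. Over all listed transcripts with a length, these products summed to between 665822 and 676300 per sample, short of 1000000. On this scale the mean over samples was 13654 for AL139099.5, 6976 for RMRP, 2497 for MALAT1 and 433 for NEAT1. The order of the 4 was the same, and among all listed genes with a length they ranked 1, 3, 17 and 155. By FPKM they ranked 1, 2, 123 and 1275 among all genes, so the 2 long RNAs stood higher by fragments than per unit of length. Ranks among noncoding genes alone were not taken by fragments, so the label of most abundant noncoding RNAs was judged by FPKM only.

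The members' share of the summed FPKM was 18.46% and 18.00% in shCtrl and 19.86% and 19.47% in shKIAA1429. Both shKIAA1429 samples lay above both shCtrl samples, by 1.43 percentage points between the means. On FPKM times length, which stands for fragments, the members' share was 3.39% and 3.35% in shCtrl and 3.68% and 3.60% in shKIAA1429. This share is of the products summed over listed transcripts with a length, not of all mapped fragments. With 2 samples against 2 the exact two-sided permutation test cannot give a p below 0.333, which is the value it gave on either scale. Nearly all of the share was held by the short RNAs. AL139099.5 took 11.3% and 11.2% in shCtrl and 12.6% and 12.9% in shKIAA1429, and RMRP took 7.03% and 6.72% against 7.21% and 6.49%. MALAT1 held 0.0932% and 0.0857% in shCtrl and 0.0721% and 0.0799% in shKIAA1429, and NEAT1 between 0.00801% and 0.0187% in the 4 samples. The higher share in shKIAA1429 was that of AL139099.5: without it the remaining 3 members took 7.13% and 6.82% in shCtrl and 7.29% and 6.59% in shKIAA1429, a difference of means of -0.0355 points. Of all genes with no protein-coding transcript, which took 20.4% of the FPKM over the 4 samples, the 4 members accounted for 92.9%.

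**Figure D3:**
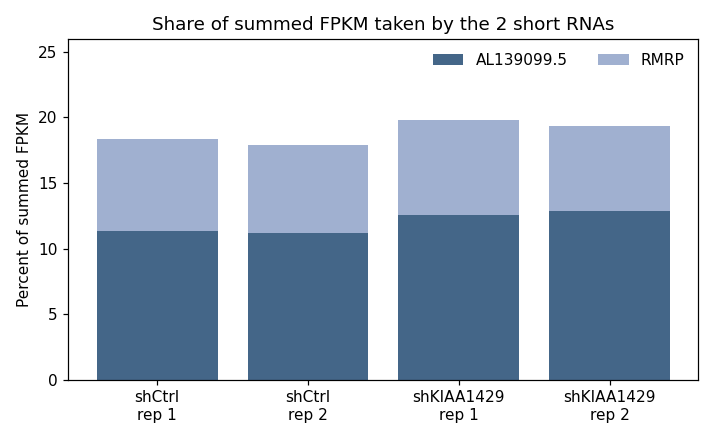
Stacked bars of the percent of summed FPKM taken by AL139099.5 (dark) and RMRP (light) in each of the 4 samples; MALAT1 and NEAT1 are not drawn. The AL139099.5 part is 11.2% and 11.3% in shCtrl and 12.6% and 12.9% in shKIAA1429, and the RMRP part ranges from 6.49% to 7.21% with no order by group.

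FPKM is relative to the total mapped, so an abundant RNA lowers all other values by the fragments it takes. The mean summed FPKM was higher by 13854 in shKIAA1429. The difference in AL139099.5 came to 52.1% of that and the difference in RMRP to 6.28%. Without the 4 members, the summed FPKM was 301899 and 306902 in shCtrl and 312725 and 307653 in shKIAA1429. Mitochondrial transcripts took 9.44% and 9.29% in shCtrl and 10.6% and 9.34% in shKIAA1429. With these transcripts left out of the sum, the members' share was 20.4% and 19.8% in shCtrl and 22.2% and 21.5% in shKIAA1429, a difference of 1.73 points.

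The groups were compared with limma on log2(FPKM + 1) over all 11657 genes that passed the filter, and a fold change on this scale understates that of low genes. None of the 11657 genes passed an adjusted p under 0.05 with an absolute log2 fold change over 1, a share of 0%, while 656 had an unadjusted p under 0.05, or 5.63%. All 4 members were tested. AL139099.5 had a log2 fold change of 0.23 (SE 0.04, 95% interval 0.12 to 0.34), with means of 41904 ± 54.2 in shCtrl and 49123 ± 101 in shKIAA1429 (SD, n = 2), 17.2% higher. Its unadjusted limma p was 0.0033 and its adjusted p 0.475, so it exceeded the spread between replicates but did not pass after adjustment. RMRP had a log2 fold change of 0.05 (SE 0.08, interval -0.15 to 0.24, limma adjusted p = 0.990), and its means were 25594 ± 616 and 26463 ± 2364 FPKM (SD, n = 2). Its sign was negative with values rescaled to TPM, which fixes the sum in each sample, and without shKIAA1429 replicate 1.

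MALAT1 had a log2 fold change of -0.18 (SE 0.11, interval -0.46 to 0.10, limma adjusted p = 0.954), from 333 ± 17.2 to 293 ± 16.8 FPKM (SD, n = 2). NEAT1 had a log2 fold change of 0.44 (SE 0.40, interval -0.60 to 1.48, limma adjusted p = 0.979), from 34.8 ± 4.33 to 51.4 ± 28.5 FPKM. Its direction rested on shKIAA1429 replicate 2: without it the log2 fold change was -0.15, and without shKIAA1429 replicate 1 it was 1.02 (adjusted p = 0.586). The intervals for AL139099.5, RMRP and MALAT1 stayed within a 2-fold change in either direction, and that of NEAT1 did not. Groups did not overlap for 1 member in the higher direction and 1 in the lower. Over all genes tested 16.9% did not overlap with shKIAA1429 higher and 16.7% with shKIAA1429 lower, and the count over 4 members is too small to set against these shares.

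**Figure D4:**
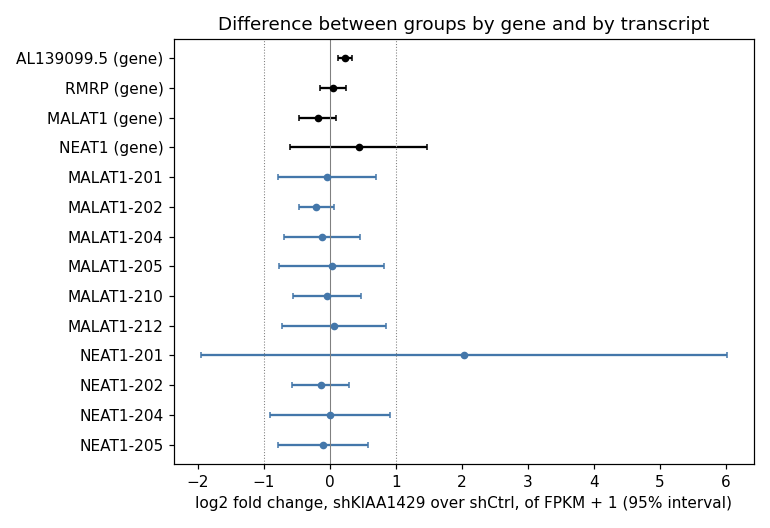
log2 fold change of FPKM + 1, shKIAA1429 over shCtrl, with its 95% interval from limma, for the 4 genes (black) and the tested transcripts of MALAT1 and NEAT1 (blue); dotted lines stand at -1 and 1. The intervals of AL139099.5, RMRP and MALAT1 lie within the dotted lines, and that of NEAT1-201 is the widest.

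The transcripts of MALAT1 were dominated by 1 form. MALAT1-202 was at 314.9 and 294.6 FPKM in shCtrl and 255.2 and 274.8 FPKM in shKIAA1429, which is 91.3% and 91.9% and then 90.7% and 90.1% of the gene's sum. Its groups did not overlap and its log2 fold change was -0.20 (SE 0.09, limma adjusted p = 0.924). The other 10 listed transcripts start within MALAT1-202 and end within it too, except MALAT1-209, which ends further downstream, at 65273987, so the division of reads among them was the quantifier's. MALAT1-204 followed at 9.33 and 7.10 FPKM in shCtrl and 7.35 and 7.50 FPKM in shKIAA1429. MALAT1-210 was at 6.01 to 7.09 FPKM and MALAT1-212 at 4.40 to 7.21 FPKM, with overlapping groups. MALAT1-201 (2.52 to 4.05 FPKM) and MALAT1-205 (1.63 to 2.92 FPKM) also overlapped. The 6 tested transcripts had log2 fold changes from -0.20 to 0.06.

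The 5 MALAT1 transcripts that did not pass the filter were near the lowest levels listed. MALAT1-208 was at 0.275 and 0.578 FPKM in shCtrl and 1.23 and 0.386 FPKM in shKIAA1429, MALAT1-209 at 0.388 to 0.614 FPKM and MALAT1-216 at 0.504 to 0.683 FPKM. MALAT1-211 was at 0.285 and 0.266 FPKM in shCtrl and 0.485 and 0.570 FPKM in shKIAA1429. MALAT1-213 was at 0.512 and 0.611 FPKM in shCtrl and 0.838 and 0.734 FPKM in shKIAA1429. The last 2 were higher without overlap while the main transcript was lower, but they held under 1% of the gene's sum and were not tested. TALAM1, annotated antisense to MALAT1 at chr11:65266783-65274903, lies over most of the gene, and since counting by strand is not stated its reads cannot be told apart from those of MALAT1.

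NEAT1 was divided otherwise. The long form builds paraspeckles and is listed as NEAT1-202. NEAT1-202 was at 19.8 and 17.6 FPKM in shCtrl and 16.2 and 17.6 FPKM in shKIAA1429. In shKIAA1429 it was lower without overlap but nearly equal in the replicates 2 (log2 fold change -0.14, SE 0.15, limma adjusted p = 0.989). All other listed NEAT1 transcripts overlap NEAT1-202, so the division of reads among them was the quantifier's. No shorter unspliced form was listed, so reads of such a form cannot be told apart from those of the long form. NEAT1-205 was at 11.8 and 9.81 FPKM in shCtrl and 8.42 and 11.8 FPKM in shKIAA1429, and NEAT1-204 at 4.21 and 3.03 FPKM and then 4.71 and 2.69 FPKM. Both overlapped between groups.

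NEAT1-201, the spliced transcript whose junction is printed above, had 2.05 and 1.29 FPKM with the control hairpin, then 1.89 and 39.4 FPKM with the KIAA1429 hairpin. The other 3 samples lay close together and shKIAA1429 replicate 2 was 30.5 times the lowest. In that sample it took 55.1% of the gene's sum, against 4.06% to 6.05% in the others, and NEAT1-202 took 24.6% there against 51.9% to 55.5%. The high value of the gene in this sample was therefore the value of 1 transcript that shares 98.7% of its bases with another, while NEAT1-202, NEAT1-204 and NEAT1-205 were at 17.6, 2.69 and 11.8 FPKM in the same sample against 17.6, 3.03 and 9.81 FPKM in shCtrl replicate 2. The log2 fold change of NEAT1-201 was 2.03 (SE 1.40, limma adjusted p = 0.973). With NEAT1-201 left out of the sum, a choice made after its values were seen, the log2 fold change of NEAT1 was -0.10. What set this sample apart was not tested.

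**Figure D5:**
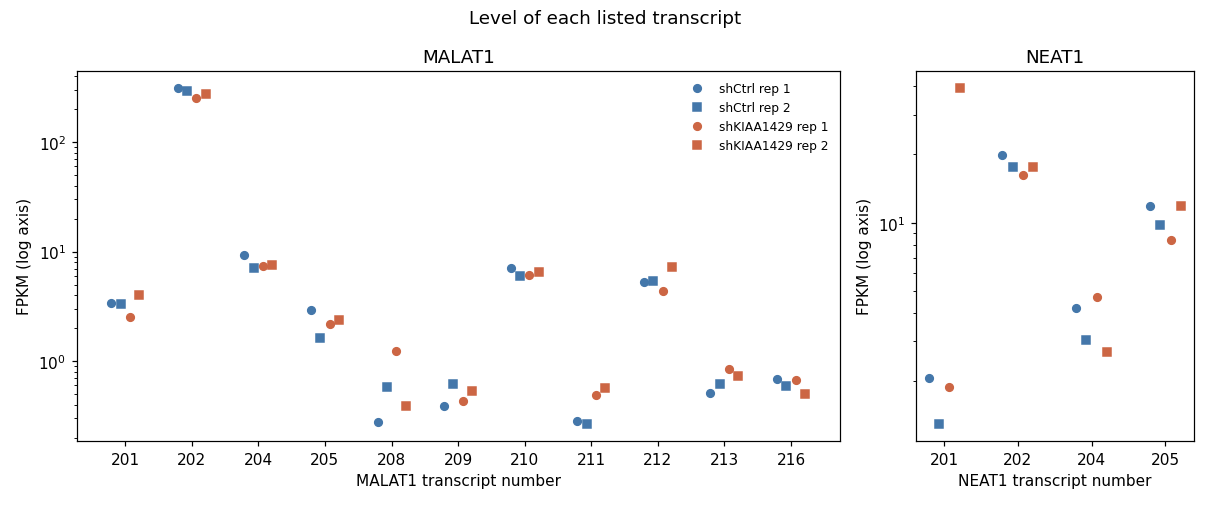
FPKM of each listed transcript of MALAT1 (left) and NEAT1 (right) on log axes, 1 point per sample, with circles for replicate 1 and squares for replicate 2. MALAT1-202 lies at 255 to 315 FPKM above all other MALAT1 transcripts, and NEAT1-201 of shKIAA1429 replicate 2 lies at 39.4 FPKM where the other 3 samples have 1.29 to 2.05.

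Of the 17 listed member transcripts, 12 passed the filter and were tested, and none passed both thresholds by limma, with 1 having an unadjusted p under 0.05 (AL139099.5-201). Among the 12, groups did not overlap for 1 in the higher direction and for 2 in the lower direction. Over the 24996 transcripts tested, 16.7% did not overlap in the higher and 16.8% in the lower direction.

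Partners of the members were taken from lists of the particles and bodies they form. Of the 11 genes of the signal recognition particle, its receptor and the Sec61 channel, none passed both thresholds by limma, 2 had an unadjusted p under 0.05, 4 were lower without overlap and none was higher without overlap. Over all genes tested, 16.7% were lower and 16.9% higher without overlap and 5.63% had an unadjusted p under 0.05. Their median log2 fold change was -0.05, against -0.01 over all genes tested. SEC61A1, the pore subunit of the channel to which the particle brings ribosomes, had 99.0 and 98.5 FPKM with the control hairpin against 55.9 and 61.0 FPKM. Its log2 fold change was -0.75 (SE 0.12, limma unadjusted p = 0.0017, adjusted p = 0.417), the opposite direction to AL139099.5. SRPRB, a subunit of the receptor, had 13.7 and 16.8 FPKM against 9.86 and 12.2 FPKM. The other subunit, SRPRA, overlapped between groups, with 29.3 and 39.0 FPKM against 32.1 and 33.3 FPKM. SRP54, the GTPase that binds the signal peptide, had 15.3 and 15.8 FPKM against 12.6 and 10.6 FPKM, and SRP19, which helps assemble the particle, had 8.06 and 7.66 FPKM against 7.39 and 7.15 FPKM. The other 4 proteins of the particle overlapped between groups: SRP9 was at 39.8 to 52.7 FPKM, SRP14 at 21.9 to 23.6 FPKM, SRP68 at 28.7 to 36.9 FPKM and SRP72 at 18.4 to 20.5 FPKM. SEC61B, at 59.6 to 70.6 FPKM, and SEC61G, at 51.1 to 83.0 FPKM, overlapped between groups.

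Of the 11 proteins of RNase MRP and RNase P, 10 were tested and none passed both thresholds by limma or had an unadjusted p under 0.05. Their median log2 fold change was -0.10, with 2 higher and 1 lower without overlap, where the shares over all genes tested were 16.9% and 16.7%. POP7, the most abundant, was at 46.0 and 65.3 FPKM in shCtrl and 36.8 and 53.8 FPKM in shKIAA1429, and POP5 was at 14.9 to 24.5 FPKM with overlap. RPP21 was at 32.4 and 32.3 FPKM against 32.7 and 44.0 FPKM, and RPP38 at 6.12 and 6.49 FPKM against 3.76 and 5.20 FPKM.

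Of 13 paraspeckle proteins, 12 were tested and none passed both thresholds by limma or had an unadjusted p under 0.05, with a median log2 fold change of -0.06 and 1 non-overlapping gene in each direction. NONO, a core protein that binds NEAT1, was at 114 and 108 FPKM in shCtrl and 129 and 171 FPKM in shKIAA1429 (log2 fold change 0.42, SE 0.17, limma adjusted p = 0.897). TARDBP, a protein known to bind NEAT1, was at 13.2 and 16.6 FPKM against 12.8 and 8.22 FPKM. HNRNPK (148 to 184 FPKM) and EWSR1 (90.3 to 102 FPKM) overlapped. The 12 nuclear speckle proteins were all tested, with a median log2 fold change of -0.13, none past both thresholds by limma or at an unadjusted p under 0.05, and 1 lower without overlap. This was SON, a scaffold of the speckle, at 25.6 and 32.7 FPKM against 21.5 and 24.0 FPKM. SRRM2, the other scaffold, was at 131 to 166 FPKM, U2AF2 at 77.6 to 97.9 FPKM, RNPS1 at 36.1 to 57.2 FPKM and SRSF2 at 10.6 to 32.6 FPKM, all overlapping.

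A list of 4 proteins that process or bind MALAT1 held 2 genes higher and 1 lower without overlap, none past both thresholds by limma or at an unadjusted p under 0.05. As for the members, 4 genes are too few to set against the 16.9% and 16.7% over all genes tested. METTL16, which binds the triple helix printed above, was at 2.91 and 3.89 FPKM in shCtrl and 4.48 and 4.09 FPKM in shKIAA1429, and HNRNPC, a reader of m6A-dependent structure in MALAT1, at 123 and 130 FPKM against 147 and 135 FPKM. YTHDC1, the nuclear m6A reader, was at 8.05 and 6.83 FPKM against 6.62 and 6.34 FPKM, lower without overlap. ELAC2, or RNase Z, which trims the 3′ end of the tRNA-like RNA, was at 31.5 to 45.8 FPKM and overlapped.

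Other noncoding RNAs were compared over the same samples. Of 30 short structured RNAs, among them 7SK, the spliceosomal RNAs, Y RNAs and RPPH1, the RNA of RNase P, only TERC was listed under its own symbol. The list was matched by symbol and not by position, so an RNA listed under another name is missed. This held for 7SL, which is on the list and whose locus is listed here as AL139099.5. An RNA of the list that was not found by symbol is therefore not shown to be absent. TERC was at 283 and 278 FPKM in shCtrl and 355 and 300 FPKM in shKIAA1429, higher without overlap (log2 fold change 0.22, SE 0.12, limma adjusted p = 0.944). A list of 28 long noncoding RNAs also held TERC. Of these 28, 16 were listed and tested, and 3, TERC among them, were higher and 1 lower without overlap. The median log2 fold change of the 16 was 0.13, and none passed both thresholds by limma or had an unadjusted p under 0.05. Over all genes tested, 16.9% were higher and 16.7% lower without overlap. CYTOR was at 152 to 180 FPKM and GAS5 at 66.2 to 134 FPKM, both overlapping. FTX (4.43 and 5.33 against 6.54 and 7.03 FPKM) and EPB41L4A-AS1 (3.25 and 2.68 against 4.07 and 4.48 FPKM) were higher without overlap. Over the 809 tested genes with no protein-coding transcript the median log2 fold change was 0.03, and 145 (17.9%) were higher and 86 (10.6%) lower without overlap.

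The 3 genes whose course over the 4 samples was most like each member were found by the root mean square difference of centred log2(FPKM + 1), among 2781 genes with a mean of at least 20 FPKM. This is a description over 4 samples, which share their groups and scaling. For AL139099.5 they were FSTL1, PITRM1 and FAAP20, with differences of 0.017, 0.017 and 0.018. For RMRP they were NPM3, RPL41 and MT-ND5, at 0.0074, 0.0087 and 0.0093, and for MALAT1 they were MMADHC, DNAJC7 and ARF6, at 0.0083, 0.012 and 0.013. For NEAT1, the nearest, MRPS27, HNRNPU and TXNDC5, lay further away at 0.11, 0.15 and 0.18. Like NEAT1, these 3 had their highest value in shKIAA1429 replicate 2, which follows from choosing them by likeness. MRPS27 had 33.1 FPKM there against 15.2 to 16.7 in the other samples.

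The letters GGAC, the core of the sequence at which m6A is commonly written, were counted on the transcript strand of each main transcript. AL139099.5-201 held 1 and RMRP-201 held 2. Of annotated transcripts at least as long, 73.0% and 69.2% held at least 1 in their first stretch of the same length. MALAT1-202 held 20, or 2.30 per kilobase, where the median of 2518 annotated transcripts at least that long was 27 in the same length. NEAT1-202 held 58, or 2.55 per kilobase, where the median of 50 such transcripts was 59.5. The base composition differed between the pairs, with a GC content of 63.0% and 63.1% in the 2 short RNAs, 40.3% in MALAT1-202 and 44.1% in NEAT1-202. These matches describe letters only, and m6A itself was not analysed here.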

How the data were processed

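RNA of HCCLM3 cells (shCtrl and shKIAA1429, 2 samples each, grouped by their titles) was sequenced by the authors, and FPKM values per annotated transcript were deposited. The submitters' processing notes name hg19 and Bowtie2 2.1.0, and the tool that made the FPKM is not given in the sources used here. No counts were among the files analysed here and depth is unknown, so no count test was run. Selection for poly(A) and counting by strand are not stated. All listed transcripts exceeded 0.5 FPKM in at least 1 sample (lowest maximum 0.504). For 108 symbols some files held a date in place of the name, which was read from the others.

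FPKM were summed per gene. Genes and, separately, transcripts that reached an FPKM of 1 in 2 or more samples entered limma 3.58.1 in R 4.3.3 (lmFit, eBayes with trend, group only, two-sided) on log2(FPKM + 1), with Benjamini-Hochberg adjustment over all tested and thresholds of 0.05 and an absolute log2 fold change of 1. The test was checked on simulated data. Transcript lengths and sequences came from GRCh37 and the GENCODE annotation lifted to it, for 97.2% of transcripts by identifier. The sequence of AL139099.5 is not reported here. Alignments used Biopython 1.88 and figures matplotlib 3.10.9 in Python 3.11.15.

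The members and the gene lists were chosen with earlier results of these data known. Named were the members, from each list the 3 most abundant tested genes and the 2 with the largest absolute log2 fold change, the most abundant other noncoding genes and the 5 directly below NEAT1, and the 3 genes most like each member. The other SRP proteins, SRPRA and genes said not to be listed were named in addition after their values were seen. Alternatives covered scaling, pseudocount, filters, the replicate number as a block, a robust variance and leaving out each sample.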

Additional observations from a re-analysis of the deposited data

How the results depend on the processing

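AL139099.5 and MALAT1 kept their direction under every alternative run, and no member passed both thresholds under any. With all 4 samples kept, the log2 fold change of AL139099.5 ranged from 0.177 (TPM) to 0.247 (upper quartile scaling). Its unadjusted limma p ranged there from 0.0023 (pseudocount of 0.1) to 0.046 (replicate block). Leaving out each sample in turn gave log2 fold changes of 0.227 to 0.231 for AL139099.5, -0.046 to 0.137 for RMRP, -0.241 to -0.124 for MALAT1 and -0.147 to 1.02 for NEAT1, a lone sample being assumed to vary like the pair in the other group. RMRP turned to -0.0071 when values were rescaled to TPM, which multiplies all values of a sample by 1 factor. The same rescaling took AL139099.5 from 0.229 to 0.177. NEAT1 turned to -0.10 without NEAT1-201, the transcript high in 1 sample. The share taken by the members differed by 1.20 to 1.66 points when each sample was left out, by 0.267 points on FPKM times length, and by -0.0355 points without AL139099.5. Genes past both thresholds numbered 0 to 1 when each sample was left out, the 1 being HIST4H4 without shCtrl replicate 1 (named after its values were seen, with the lone control sample at 1.85 FPKM), and 125 on fold change alone. In a fit that took the replicate number as a block, adjusted p-values were 0.454 for AL139099.5, 0.851 for RMRP, 0.523 for MALAT1 and 0.688 for NEAT1, and 0 genes passed by limma, 1269 having an unadjusted p under 0.05; the deviations of same-numbered samples correlated at r = 0.324 across genes over 2 pairs, and the samples share only a number. No scaling moved the median log2 fold change of all genes beyond -0.054. Depth is unknown, and 2 samples per group limit what could be detected.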
